A study of Mus musculus with 12 samples.

Results

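The collagen gene family was followed across livers of Abcb4 (-/-) and Abcb4 (+/+) mice. Its members were all gene probes on the array whose gene name in the scanner files was Col, a number, a and a number, with nothing after it. This gave 40 genes with 78 probes on 96 spots, of 41174 gene probes in all. By class, 25 probes belonged to fibrillar collagens, 18 to basement membrane collagens, 10 to network and beaded filament collagens, 14 to fibril-associated collagens and 11 to transmembrane and other collagens.

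Abcb4 moves phospholipid across the hepatocyte membrane to the bile side, and its loss in mice leads to inflamed and scarred bile ducts. The Abcb4 (-/-) mice had eaten cholic acid (CA), meant to raise disease activity, or ursodeoxycholic acid (UDCA), meant to lower it, over 9 weeks. RNA of 1 knockout liver and of wild-type Abcb4 (+/+) liver shared each array in different dyes, without pooling. Each diet had 6 arrays but only 5 knockout livers, since 1 liver was hybridised again with its dyes exchanged. Arrays 1 to 3 of each diet carried the knockout RNA in Cy5 and arrays 4 to 6 in Cy3. All knockout mice on these arrays had been given a bile acid, so the loss of Abcb4 and the diet cannot be told apart in a ratio to wild type. The labels name no strain, sex, age, dose or diet of the wild-type mice.

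Collagens are matrix proteins whose chains wind around each other into a triple helix, which needs glycine, the smallest residue, at regular steps. Fibrillar collagens build the tough fibres of a scar, and basement membrane collagens form sheets under epithelia and around vessels. Beaded filament collagens link fibres to cells, and fibril-associated collagens coat the fibres. In injured liver the fibre-forming chains come mainly from activated stellate cells and portal fibroblasts.

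The repeat of the triple helix could be read in 3 of the collagen probes, which are shown because they hold the repeat that defines the family. In these 60-base probes every complete codon at steps of 9 bases was a glycine codon, GGN, which capitals mark. None of the 41096 other gene probes with a sequence had this pattern.

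Col5a1 A_52_P237371: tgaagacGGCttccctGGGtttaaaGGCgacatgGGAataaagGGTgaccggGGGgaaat

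Col5a3 A_52_P503796: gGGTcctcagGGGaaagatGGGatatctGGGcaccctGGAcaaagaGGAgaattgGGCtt

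Col11a2 A_52_P563285: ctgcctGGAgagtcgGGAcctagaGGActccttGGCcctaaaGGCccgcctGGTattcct

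In the positions of the scanner files (mm7, plus strand unless stated) these probes lay at chr2:27994034-27996457, at chr9:20655471-20656200 on the minus strand and at chr17:32131401-32131567. Each spans more of the genome than its 60 bases. None of the 3 was bright enough to be tested, although another probe of each of these genes was.

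A probe was tested if it was well above background on at least 5 of 6 arrays in knockout or wild-type RNA of either diet. This left 44 collagen probes of 31 genes, and 34 probes were not tested, 18 of them not well above background on any array in any RNA. Of the 44 tested probes, 18 passed through knockout RNA only and 12 of these through CA-fed knockout RNA only, so for them a higher ratio was partly set by the filter. Only 16 were measured on at least 5 arrays in every RNA. The genes with no tested probe were Col24a1, Col10a1, Col9a1, Col9a3, Col12a1, Col19a1, Col22a1, Col25a1 and Col28a1. The only probe of Col12a1, a fibril-associated collagen, read 0.37, 1.28, -0.05, 0.18, 0.27 and 0.05 on CA arrays 1 to 6 and 0.58, -0.16, 0.18, 0.11, 0.29 and 0.45 on UDCA arrays 1 to 6. It was well above background in knockout RNA on 4 CA arrays and 3 UDCA arrays.

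Detection went with the place of the probe in the gene. Of 28 genes with several probes, the probe closest to the 3′ end was tested in 22 (78.6%), against 15 of the 38 probes farther upstream (39.5%). Of the 21 probes that lay 10 kb or more upstream in the genome, 1 was tested, the Col3a1 probe A_52_P684242. The limit of 10 kb was chosen after the values were seen, and introns count in these distances.

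**Figure D1:**
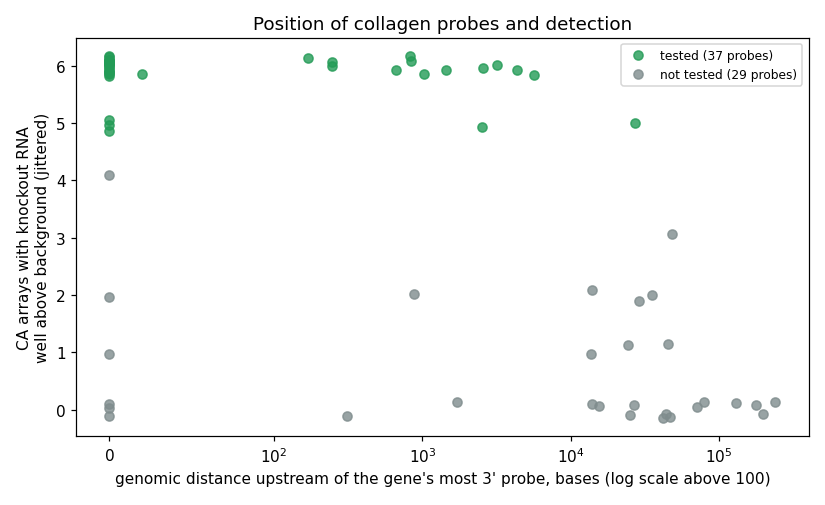
Each point is a probe of a collagen gene with several probes, by its genomic distance upstream of the gene's most 3′ probe (log scale for all but the shortest distances) and by the number of CA arrays on which knockout RNA was well above background, with a small vertical jitter. Of the 21 probes at 10 kb or more, 1 was tested.

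Median intensity per array lay between 250.2 and 1296 in green and between 59.2 and 158.2 in red. Precision is limited by how many arrays there were. The targeted gene comes first. The Abcb4 probe A_52_P223194 was lower than wild type on all 12 arrays, at -2.73 ± 0.21 with CA (adjusted p = 4.3e-08) and -1.77 ± 0.21 with UDCA (adjusted p = 1.82e-05), and A_51_P249118 read -0.73 ± 0.21 and -1.28 ± 0.21 (adjusted p = 0.00699 and 0.00032), though above 0 on CA array 1 (0.11) and UDCA array 2 (0.34). The labels do not say which bases were deleted, so these probes may lie outside them. CA arrays 3 and 4 stood apart in pancreas markers, with medians of -3.66 and -3.26. Ratios here and in what follows are log2 of knockout over wild type within an array, estimates carry ± their SE from limma, and "called" means a Benjamini-Hochberg adjusted p under 0.05 over all 21688 tested probes.

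In CA-fed knockout liver 33 of the 44 tested collagen probes were higher than in wild type, 4 were lower and 7 were not called. Over all tested probes 34.2% were higher and 25.4% lower. With UDCA, 20 were higher and 2 lower, against 15.1% and 8.39% of all tested probes. In the difference between the diets, 21 were higher with CA and 0 lower, against 16.4% and 10.5%. The median ratio of the tested collagen probes was 1.14 with CA, 0.36 with UDCA and 0.52 for the difference, beside 0.05, 0.03 and 0.03 over all tested probes. Counted by gene, at least 1 probe was higher for 23 genes with CA, for 17 with UDCA and for 16 in the difference. Among probes at least 2-fold higher and called there were 23 collagen probes with CA, 13 with UDCA and 8 between the diets, against 11.1%, 3.2% and 5.13% of all tested probes. Of the 16 probes measured in every RNA, 11 were higher and 2 lower with CA, and 10 were higher and 2 lower with UDCA. In the difference between the diets, only 4 of these 16 were higher with CA. In whole liver RNA, a change in the number of cells of a type and a change in RNA per cell cannot be told apart.

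The difference between the diets is the least firm of the 3 comparisons. Each diet was measured on its own arrays, and CA arrays 1 to 4 lay on slides without UDCA arrays. The 21 probes higher with CA became 10 with slide as a fixed block, 11 with the processed signals of the scanner software, and 12 when only the brightest tested probe of each gene was counted. With 1 possible dye-swap pair per diet averaged to 1 replicate, they were between 13 and 23 over the 81 possible choices. With median centring in place of loess they became 7, and among the calls lost were those of Col5a1, Col6a3 and Col16a1. The block for slide ended the calls of Col1a1 A_51_P377094, Col2a1 A_52_P216436, Col5a2, Col4a1 A_52_P518827, Col4a2 A_52_P496142, both Col4a3 probes, Col4a4 A_52_P424594, Col4a6 A_51_P109326, Col15a1 and Col6a1. Within slide 3 the median difference was 0.37, and within slide 4 it was 0.28, or 0.35 for arrays of the same dye orientation. Each of these slides held only 1 CA array. On slide 3 the knockout was in Cy3 on CA array 5 and in Cy5 on UDCA arrays 1 and 2. Diet and dye orientation therefore cannot be told apart within slide 3.

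**Figure D2:**
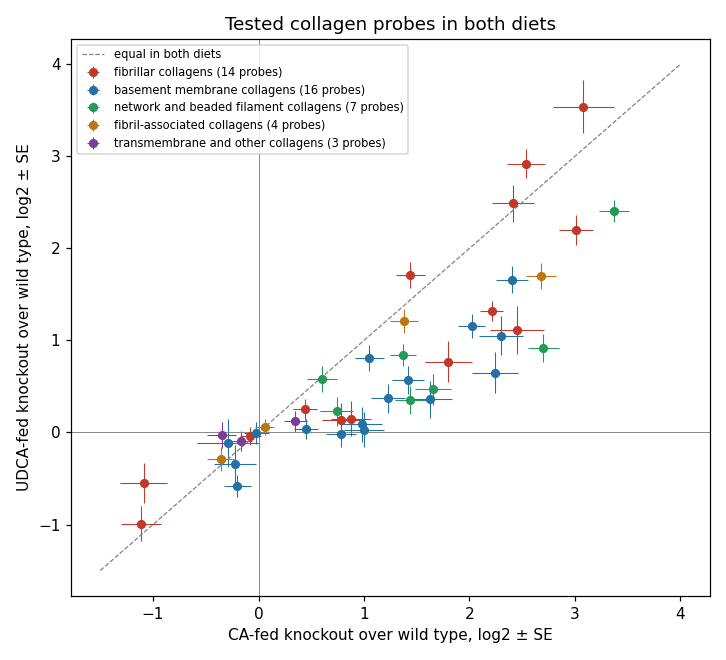
Each point is 1 of the 44 tested collagen probes, with its fitted log2 ratio in CA-fed liver on the x axis, in UDCA-fed liver on the y axis, SE bars, and the class in colour. Most points lie to the right of the dashed line of equal ratios, while 4 fibrillar probes with a high ratio in both diets lie above it.

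**Figure D3:**
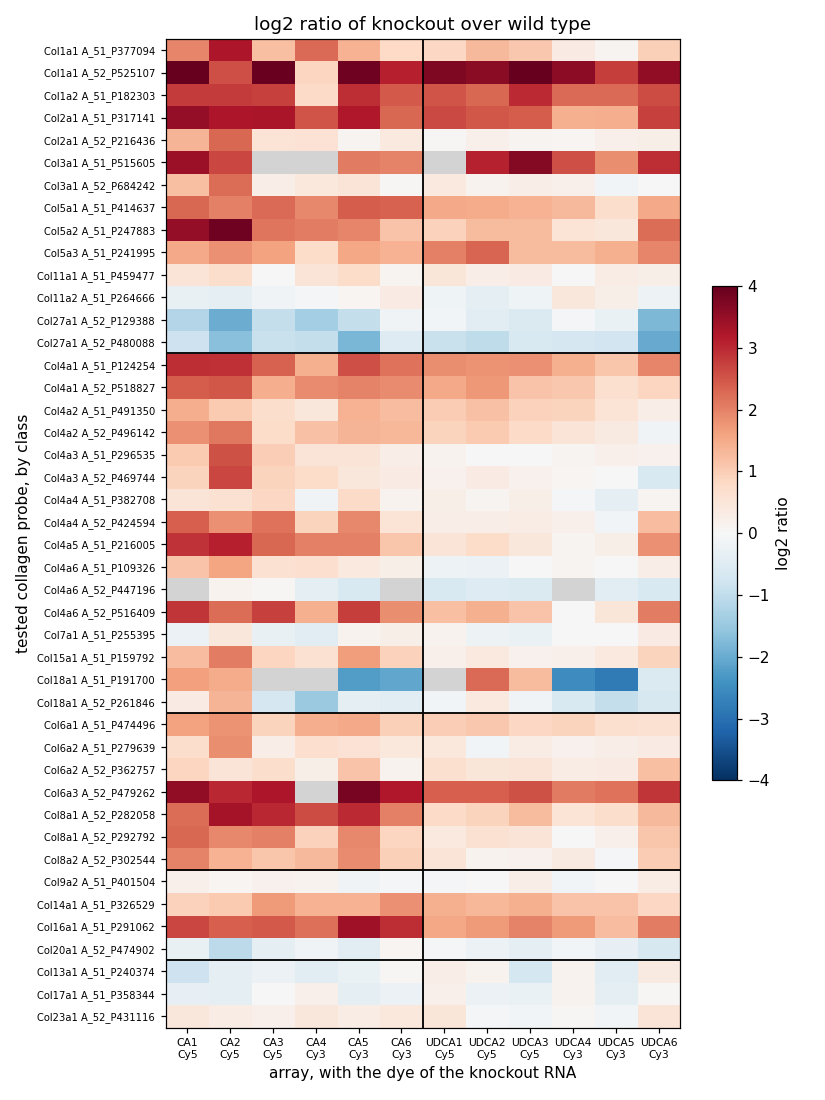
Log2 ratios of knockout over wild type are shown for the 44 tested collagen probes (lines, by class) on the 12 arrays (columns, with the dye of the knockout RNA). Missing values are grey, and the Col18a1 probe A_51_P191700 changes sign with the dye.

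Fibrillar collagens had the highest median ratio of the classes in both diets, 1.62 with CA and 0.94 with UDCA. Of their 14 tested probes, 11 were higher and 2 lower with CA, 8 were higher and 1 lower with UDCA, and 5 were higher in the difference. The filter passed 5 of the 14 through knockout RNA only, 3 of these through CA-fed knockout RNA only. The chains of types I and III, the main fibres of scar tissue, were higher than wild type in both diets by their brightest probes, and their differences between the diets were not called. These probes were partly saturated in knockout RNA, which limits what the differences can show.

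For Col1a1, the major chain of type I collagen, the brightest probe was A_52_P525107 (chr11:95060800-95060859), printed on 10 spots. In array order its CA ratios were 4.10, 2.57, 3.95, 0.86, 3.90 and 3.10, and its UDCA ratios 3.72, 3.62, 4.01, 3.57, 2.78 and 3.56. All 12 were above 0, the diets overlapped, and CA array 4 was far below the rest. The estimates were 3.08 ± 0.29 with CA (8.46-fold, adjusted p = 3.64e-07) and 3.54 ± 0.29 with UDCA (11.6-fold, adjusted p = 5.66e-07), and the difference of -0.46 ± 0.41 was not called (adjusted p = 0.431). Its knockout signal was saturated on CA arrays 4 to 6 and UDCA arrays 4 and 5, so those ratios are lower bounds. With saturated values left out, the estimates were 3.44 ± 0.31 and 3.68 ± 0.19, and the difference was -0.24 ± 0.36 (adjusted p = 0.645). Over the alternatives checked probe by probe the difference ran from -0.73 to 0.88, the last with slide as a fixed block. It was also above 0 with the deposited series values and with CA arrays 2 and 4 left out.

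A second Col1a1 probe, A_51_P377094, lay 1023 bases upstream and was not saturated. It read 1.96, 3.22, 1.19, 2.25, 1.40 and 0.80 with CA and 0.83, 1.31, 1.09, 0.33, 0.12 and 0.95 with UDCA. Its estimates were 1.80 ± 0.22 and 0.77 ± 0.22, and here the difference was called, at 1.03 ± 0.31 (adjusted p = 0.0216). The call was lost without CA array 4 (0.86, adjusted p = 0.0516), UDCA array 1 (0.98, adjusted p = 0.0527) or UDCA array 5 (0.96, adjusted p = 0.0507), and with CA arrays 2 and 4 both left out (0.57, adjusted p = 0.0826). The UDCA call was lost without UDCA array 2 or array 6. On CA arrays 2 and 4 its log2 level was 13.5 and 12.7 in knockout RNA and 10.3 and 10.4 in wild-type RNA, while on the other 10 arrays it lay between 8.2 and 9.6 in knockout RNA and between 7.2 and 8.8 in wild-type RNA. The 2 probes of Col1a1 thus gave opposite signs for the difference between the diets. The third, A_52_P658611, lay 13798 bases upstream, was not tested, and read 2.57 on CA array 2 but between -0.54 and 0.31 on the other arrays.

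Col1a2, the partner chain in type I collagen, was read by A_51_P182303 (chr6:4493505-4493564). Its ratios were 2.80, 2.79, 2.72, 0.75, 2.96 and 2.45 with CA and 2.53, 2.29, 2.98, 2.27, 2.27 and 2.60 with UDCA. Apart from CA array 4, the values of both diets lay in one band. The estimates were 2.41 ± 0.20 with CA (5.31-fold, adjusted p = 1.14e-07) and 2.49 ± 0.20 with UDCA (5.62-fold, adjusted p = 5.52e-07), with a difference of -0.08 ± 0.29 (adjusted p = 0.871). The knockout signal was saturated on CA arrays 4 to 6, and without those values the difference was 0.17 ± 0.22 (adjusted p = 0.584). In the deposited series values the difference was 0.55 (adjusted p = 0.0238), with slide as a fixed block it was 0.87, and without CA array 4 it was also above 0.

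Col3a1 encodes the chain of type III collagen, which forms fibres together with type I. Its brightest probe, A_51_P515605 (chr1:45585395-45585454), read 3.43, 2.68, 2.09 and 1.97 on CA arrays 1, 2, 5 and 6 and 3.09, 3.66, 2.58, 1.87 and 2.94 on UDCA arrays 2 to 6, the values of CA arrays 3 and 4 and UDCA array 1 being missing after outlier flags. The diets overlapped, with estimates of 2.54 ± 0.18 and 2.92 ± 0.16 (adjusted p = 1.66e-07 and 1.56e-07) and a difference of -0.38 ± 0.24 (adjusted p = 0.275). The knockout signal was saturated on all 6 arrays with the knockout in Cy3, and the difference could not be fitted without saturated values. The second tested probe, 27228 bases upstream in the genome, read 1.19, 2.24, 0.25, 0.41, 0.53 and 0.06 with CA and 0.39, 0.13, 0.26, 0.21, -0.11 and -0.02 with UDCA. Its estimates were 0.78 ± 0.18 with CA (adjusted p = 0.00202) and 0.14 ± 0.18 with UDCA (adjusted p = 0.635), where neither RNA was well above background on any array. The difference by this probe was above 0, opposite to the first, and not called. Over the alternatives checked probe by probe it ran from 0.09 to 1.74. It was called with the processed signals (1.74, adjusted p = 0.00053) and the deposited series values (0.74, adjusted p = 0.0109). The same held without CA array 3 (0.82, adjusted p = 0.0232) or CA arrays 3 and 4 (0.86, adjusted p = 0.0301).

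The type V chains, which set the width of type I fibres, did not move alike. Col5a1 (A_51_P414637, chr2:28044683-28044742) read 2.29, 2.01, 2.28, 1.93, 2.42 and 2.36 with CA and 1.53, 1.49, 1.39, 1.29, 0.70 and 1.52 with UDCA. Every CA value was above every UDCA value, which held for 5 of the 44 collagen probes and for 6.04% of all tested probes. The reverse held for 0 collagen probes, against 3.79%. The estimates were 2.21 ± 0.11 and 1.32 ± 0.11 (adjusted p = 1.19e-09 and 9.16e-07), and the difference was 0.89 ± 0.16 (adjusted p = 0.00118).

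Col5a2 (A_51_P247883, chr1:45613427-45613486, minus strand), the partner of Col5a1, read 3.53, 3.89, 2.15, 2.05, 1.94 and 1.14 with CA and 0.92, 1.27, 1.25, 0.56, 0.44 and 2.23 with UDCA. CA arrays 1 and 2 and UDCA array 6 were high within their diets, and the diets overlapped. The estimates were 2.45 ± 0.26 and 1.11 ± 0.26, and the difference of 1.34 ± 0.37 (adjusted p = 0.0162) was the largest called difference of the class. It was not called with CA arrays 2 and 4 left out (1.08, adjusted p = 0.0686) or with slide as a fixed block (0.82, adjusted p = 0.0893). For Col5a3 the estimates were 1.44 ± 0.14 with CA and 1.71 ± 0.14 with UDCA, and the difference of -0.28 ± 0.20 was not called (adjusted p = 0.334).

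Col2a1, best known as the fibrillar collagen of cartilage, had a pair of tested probes that share 40 bases (chr15:97979237-97979296 and chr15:97979257-97979316, minus strand). A_51_P317141, printed on 10 spots, read 3.50, 3.24, 3.28, 2.53, 3.21 and 2.31 with CA and 2.65, 2.47, 2.43, 1.43, 1.46 and 2.74 with UDCA. A_52_P216436, on 1 spot, read 1.36, 2.29, 0.54, 0.57, 0.12 and 0.40 with CA and 0.05, 0.20, 0.12, 0.08, 0.19 and 0.23 with UDCA. Despite the shared bases, the estimates were 3.01 ± 0.16 and 0.88 ± 0.19 with CA, and 2.20 ± 0.16 (adjusted p = 1.5e-07) and 0.15 ± 0.19 (adjusted p = 0.629) with UDCA. Neither probe was saturated on any array. Both differences between the diets were called, at 0.81 ± 0.22 and 0.73 ± 0.26 (adjusted p = 0.0134 and 0.0497), the second not without any one of CA arrays 1, 2, 4 and 6 and UDCA arrays 1 to 5.

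Col27a1, a fibrillar collagen best known from cartilage, fell. A_52_P480088 read -0.82, -1.67, -0.90, -0.95, -1.82 and -0.51 with CA and -0.89, -1.03, -0.60, -0.66, -0.78 and -2.01 with UDCA, below 0 on all 12 arrays. The estimates were -1.11 ± 0.19 and -0.99 ± 0.19 (adjusted p = 0.000123 and 0.00113). Its second tested probe, A_52_P129388, read -1.16, -1.97, -0.96, -1.37, -0.95 and -0.13 with CA and -0.12, -0.45, -0.57, -0.08, -0.27 and -1.80 with UDCA, and was called with CA (-1.09 ± 0.22) but not with UDCA (-0.55 ± 0.22, adjusted p = 0.0897). UDCA array 6 was lowest in its diet on both, and with median centring neither was called with UDCA. Of the other fibrillar genes, Col11a1 rose with CA (0.44 ± 0.11, adjusted p = 0.00329, not called with median centring or slide as a fixed block) and Col11a2 was not called (-0.08 ± 0.10).

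Basement membrane collagens made up the largest set of tested probes, 16, and 12 of them were higher with CA, 6 with UDCA and 10 between the diets. Of 6 probes higher with CA and not called with UDCA, the difference itself was called for 5. Of the 16 tested probes, 6 passed the filter through knockout RNA only, 4 of them through CA-fed knockout RNA only. For those a higher ratio, and a higher value with CA, was partly set by the filter.

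Col4a1 and Col4a2 encode the chains of the common type IV collagen network, and in RefSeq (GRCm38.p6) their starts lie 21 bases apart on opposite strands. Col4a1 was read by A_51_P124254 (chr8:11167020-11167079, minus strand). Its CA arrays gave 2.96, 2.91, 2.36, 1.43, 2.59 and 2.16 and its UDCA arrays 1.86, 1.80, 1.82, 1.42, 1.10 and 1.96. The diets overlapped only through CA array 4, where the knockout signal was saturated. The estimates were 2.40 ± 0.15 and 1.66 ± 0.15 (5.28-fold and 3.16-fold, adjusted p = 4.56e-09 and 1.05e-06), with a difference of 0.75 ± 0.21 (adjusted p = 0.0156). The second Col4a1 probe gave 2.02 ± 0.13, 1.16 ± 0.13 and a called difference of 0.86 ± 0.19. Neither difference was called with the processed signals (0.23 and 0.55, adjusted p = 0.58 and 0.131) or with median centring (0.66 and 0.76).

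Col4a2 rose less. A_51_P491350 read 1.44, 1.05, 0.71, 0.44, 1.40 and 1.24 with CA and 1.03, 1.16, 0.91, 0.89, 0.56 and 0.28 with UDCA, and A_52_P496142 read 1.82, 2.11, 0.73, 1.18, 1.36 and 1.33 with CA and 0.88, 1.06, 0.75, 0.50, 0.37 and -0.15 with UDCA. Both were called in both diets, at 1.05 ± 0.14 and 0.81 ± 0.14 for the first and 1.42 ± 0.15 and 0.57 ± 0.15 for the second. Neither was called with UDCA under median centring (1.22 and 0.99). They parted in the difference, which was 0.24 ± 0.19 (adjusted p = 0.381) by the first and 0.85 ± 0.21 (adjusted p = 0.00845) by the second.

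The chains of the specialised type IV networks, Col4a3 to Col4a6, are known above all from kidney glomeruli and other epithelia. Col4a5 (A_51_P216005, chrX:136352769-136352828) read 2.90, 3.11, 2.31, 2.00, 2.03 and 1.10 with CA and 0.53, 0.74, 0.45, 0.12, 0.24 and 1.82 with UDCA. Only UDCA array 6 reached into the CA range. The estimates were 2.24 ± 0.22 with CA (adjusted p = 5.68e-07) and 0.65 ± 0.22 with UDCA (adjusted p = 0.0445). The difference of 1.59 ± 0.31 (adjusted p = 0.00196) was the largest of the class, but with the processed signals it was 0.73 and not called (adjusted p = 0.296). Wild-type RNA was not well above background in the UDCA group, so the UDCA value is given as at least 1.57-fold higher. Such a fold takes as wild-type level on each array the lowest signal well above background, or the probe's own where that was higher. With the probe's own signal it is the mean ratio of the arrays itself. It carries no SE, and single arrays can lie below it. The UDCA call was lost without any one of CA arrays 3 to 5 or UDCA arrays 1, 2, 4, 5 and 6, and without UDCA array 6 the UDCA estimate was 0.34 (adjusted p = 0.156), so the bound rests in part on that array.

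Both tested probes of Col4a3 rose with CA, at 0.98 ± 0.19 and 1.0 ± 0.19 (adjusted p = 0.000417 and 0.000381), and were near 0 with UDCA, at 0.09 ± 0.19 and 0.03 ± 0.19, where neither RNA was well above background on any array. CA array 2 was far above the others on both, at 2.54 and 2.67, and with slide as a fixed block neither had a called difference (0.33 and 0.30). Its neighbour Col4a4 also rose with CA, at 0.45 ± 0.11 by A_51_P382708 and 1.63 ± 0.20 by A_52_P424594, the latter at least 2.92-fold, and neither probe was called with UDCA. The first read 0.51, 0.62, 0.84, -0.15, 0.76 and 0.14 with CA and 0.24, 0.10, 0.22, -0.05, -0.37 and 0.11 with UDCA, whereas the second probe read 2.39, 1.83, 2.16, 0.90, 1.91 and 0.56 with CA and 0.28, 0.28, 0.29, 0.20, -0.12 and 1.23 with UDCA. Both were mostly higher with CA, but the difference was called for the second alone (1.27 ± 0.29, adjusted p = 0.00485, against 0.41 ± 0.16, adjusted p = 0.0692). With slide as a fixed block that of the second was not called either (1.25, adjusted p = 0.0609). The first was called too without CA array 4 or UDCA array 6.

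The 3 tested probes of Col4a6 had the widest spread of the family with CA. A_52_P516409, the one closest to the 3′ end, read 2.85, 2.23, 2.74, 1.41, 2.75 and 1.85 with CA and 1.19, 1.43, 1.13, 0.02, 0.49 and 2.05 with UDCA. A_51_P109326, 826 bases upstream, read 1.15, 1.58, 0.62, 0.67, 0.40 and 0.24 with CA and -0.20, -0.25, 0.00, 0.12, -0.03 and 0.25 with UDCA. A_52_P447196, 1442 bases upstream and the brightest, read 0.13, 0.05, -0.37 and -0.61 on CA arrays 2 to 5 and -0.60, -0.51, -0.58, -0.46 and -0.61 on UDCA arrays 1, 2, 3, 5 and 6. The estimates thus ran from 2.30 ± 0.21 through 0.78 ± 0.14 to -0.20 ± 0.13 with CA, and from 1.05 ± 0.21, at least 2.07-fold, through -0.02 ± 0.14 to -0.58 ± 0.12 (adjusted p = 0.00319, lower) with UDCA. That lower call was lost with slide as a fixed block, with median centring and with flagged values kept.

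Col15a1 and Col18a1 encode chains whose ends are cut off as fragments that restrain vessel growth. Col15a1 (A_51_P159792, chr4:47326045-47326104) read 1.22, 2.05, 0.87, 0.61, 1.68 and 0.92 with CA and 0.19, 0.40, 0.17, 0.19, 0.40 and 0.89 with UDCA. It rose with CA (1.23 ± 0.16, adjusted p = 1.23e-05) and was not called with UDCA (0.37 ± 0.16, adjusted p = 0.117). With UDCA it was called higher with the processed signals (0.69, adjusted p = 0.00378) and the deposited series values (0.39, adjusted p = 0.0353). So it was with each diet fitted alone and with CA arrays 2 and 4 left out. The difference was called (0.85 ± 0.23, adjusted p = 0.0133), though not with slide as a fixed block (0.95, adjusted p = 0.0686) or median centring (0.91, adjusted p = 0.184). UDCA array 6 alone overlapped the CA arrays.

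Col18a1, which hepatocytes are known to make, gave ratios that split by dye on its brightest probe. A_51_P191700 (chr10:76707663-76707722, minus strand) read 1.65, 1.47, -2.22 and -2.07 on CA arrays 1, 2, 5 and 6 and 2.26, 1.25, -2.53, -2.82 and -0.57 on UDCA arrays 2 to 6, the other values being missing after outlier flags. It was above 0 on every measured array with the knockout in Cy5 and below 0 on every one with the knockout in Cy3, and it was the only tested collagen probe whose values did so. The RNA in Cy3 was saturated on all 12 arrays, so none of these ratios is a full measurement. On UDCA array 6 both RNAs were saturated, and with saturated values left out no estimate could be had. The estimates, -0.29 ± 0.29 and -0.11 ± 0.26, were not called (adjusted p = 0.409 and 0.81), nor were those of the second probe, -0.22 ± 0.20 and -0.34 ± 0.20, which was saturated in knockout RNA on 4 arrays and in wild-type RNA on 4. The second probe was called lower with CA without CA array 2. Col7a1, the chain of anchoring fibrils, was not called in either diet (-0.02 ± 0.12 and -0.01 ± 0.12).

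**Figure D4:**
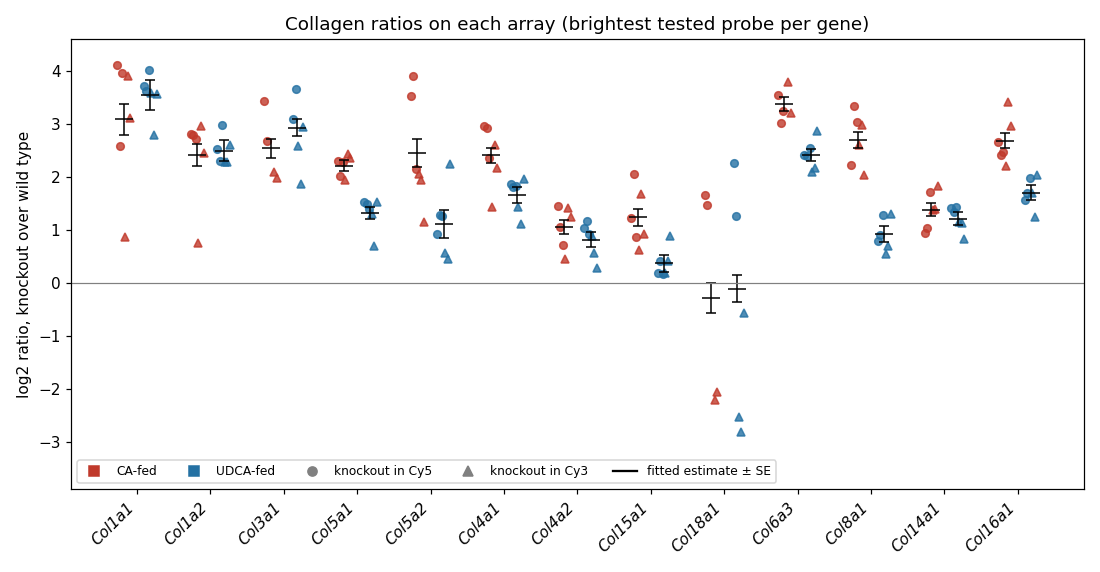
Knockout over wild type (log2) on each array is shown for the brightest tested probe of 13 collagen genes, red for CA and blue for UDCA, circles for the knockout in Cy5 and triangles for Cy3, with the fitted estimate ± SE in black. Col1a1, Col1a2 and Col3a1 overlap between the diets, Col5a1, Col6a3, Col8a1 and Col16a1 do not, and Col18a1 splits by dye.

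Among network and beaded filament collagens, all 7 tested probes were higher with CA and 4 with UDCA, and 5 were higher with CA than with UDCA. Of these 7 probes, 4 passed the filter through knockout RNA only, 3 of them through CA-fed knockout RNA only, so these counts were partly set by it. Only 1 was measured on at least 5 arrays in every RNA. Col6a3, the long chain of the type VI beaded filament, had the highest CA estimate of the family with all values in, though with saturated values left out that of Col1a1 was higher (3.44 ± 0.31 against 3.23 ± 0.21). Its tested probe A_52_P479262 (chr1:90671098-90671157, minus strand) read 3.55, 3.01, 3.24, 3.79 and 3.21 on CA arrays 1, 2, 3, 5 and 6, array 4 being missing, and 2.40, 2.39, 2.54, 2.08, 2.17 and 2.87 with UDCA. On the arrays with a value the diets did not overlap, but CA array 4 was missing through an outlier flag. The estimates were 3.37 ± 0.14 with CA (10.3-fold, adjusted p = 5.64e-10) and 2.41 ± 0.12 with UDCA (5.31-fold, adjusted p = 3.15e-08), and the difference was 0.96 ± 0.19 (adjusted p = 0.00211). Its knockout signal was saturated on CA arrays 4 to 6, and without those values the difference was 0.82 ± 0.24 (adjusted p = 0.0212). With flagged values kept, CA array 4 among them, the difference was 0.48 and not called (adjusted p = 0.41).

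The other type VI chains rose less. Col6a1 gave 1.37 ± 0.12 with CA and 0.84 ± 0.12 with UDCA, both called, with a called difference of 0.53 ± 0.17 (adjusted p = 0.0307) that was lost without any one of CA arrays 1, 2, 4 and 5 or UDCA arrays 1, 3 and 5. Its neighbour Col6a2 had 2 tested probes. A_52_P362757 read 0.85, 0.50, 0.70, 0.24, 1.15 and 0.13 with CA and 0.64, 0.49, 0.53, 0.29, 0.34 and 1.2 with UDCA, and A_51_P279639 read 0.71, 1.85, 0.25, 0.66, 0.57 and 0.42 with CA and 0.42, -0.11, 0.31, 0.17, 0.28 and 0.32 with UDCA. Both were called with CA, at 0.60 ± 0.14 and 0.74 ± 0.16, but only the first with UDCA (0.58 ± 0.14, adjusted p = 0.00714, against 0.23 ± 0.16, adjusted p = 0.326), and neither in the difference, although the second was without CA array 3.

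Type VIII collagen, a short-chain network collagen of vessel walls and other matrices, showed the largest difference between the diets. For Col8a1, A_52_P282058 (chr16:57488371-57488430, minus strand) read 2.22, 3.33, 3.03, 2.60, 2.98 and 2.03 with CA and 0.78, 0.90, 1.28, 0.55, 0.69 and 1.30 with UDCA, with no overlap. The estimates were 2.70 ± 0.15 (6.5-fold, adjusted p = 2.56e-09) and 0.92 ± 0.15 (1.89-fold, adjusted p = 0.000454), and the difference was 1.78 ± 0.22 (3.43-fold, adjusted p = 7.88e-05). The second probe, A_52_P292792, read 2.31, 1.91, 2.00, 0.93, 1.91 and 0.86 with CA and 0.39, 0.61, 0.53, -0.02, 0.19 and 1.12 with UDCA. With CA it was at least 3.14-fold higher than wild type in the mean, a bound without an SE. CA arrays 4 and 6 lay below that fold. The probe was near the threshold with UDCA (0.47 ± 0.17, adjusted p = 0.0539), and also had a called difference (1.18 ± 0.24, adjusted p = 0.00221). With UDCA it was called without CA array 4 or 6, with the processed signals, with each diet fitted alone and with saturated values left out.

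Col8a2, the partner chain of Col8a1, gave 1.44 ± 0.15 with CA (adjusted p = 1.17e-06) and 0.35 ± 0.15 with UDCA (adjusted p = 0.113), with a difference of 1.09 ± 0.22 (adjusted p = 0.00205). These 3 probes of type VIII collagen were the only collagen probes whose difference was called under all alternatives in which they were tested. None was tested when both RNAs of both diets had to be above background, and A_52_P292792 and Col8a2 passed the filter through CA-fed knockout RNA only.

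Of 4 tested probes of fibril-associated collagens, 2 were higher in both diets. Col16a1, which links fibrils to cells, was read by A_51_P291062 (chr4:129543748-129543807), which read 2.66, 2.40, 2.46, 2.20, 3.40 and 2.95 with CA and 1.56, 1.70, 1.97, 1.70, 1.23 and 2.04 with UDCA, again with no overlap. The estimates were 2.68 ± 0.14 and 1.70 ± 0.14 (6.41-fold and 3.25-fold, adjusted p = 1.51e-09 and 7.62e-07), with a difference of 0.98 ± 0.20 (adjusted p = 0.00282). Col14a1, which binds the surface of type I fibres, rose in both diets. A_51_P326529 (chr15:55583816-55583875) read 0.93, 1.04, 1.71, 1.38, 1.39 and 1.82 with CA and 1.41, 1.34, 1.43, 1.14, 1.13 and 0.83 with UDCA. Its estimates were 1.38 ± 0.13 and 1.21 ± 0.13 (adjusted p = 2.38e-07 and 4.95e-06), and the difference of 0.17 ± 0.18 was not called (adjusted p = 0.521).

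Col20a1 was lower with CA. It read -0.29, -1.05, -0.35, -0.13, -0.41 and 0.09 with CA and -0.05, -0.24, -0.37, -0.12, -0.34 and -0.63 with UDCA, with estimates of -0.36 ± 0.13 (adjusted p = 0.0243) and -0.29 ± 0.13 (adjusted p = 0.111). The CA call was lost without CA array 2 or array 5, with CA arrays 2 and 4 left out, with median centring and with slide as a fixed block. Col9a2 was not called in either diet, at 0.06 ± 0.09 in both.

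Transmembrane and other collagens showed little. The membrane collagen Col13a1 read -0.83, -0.40, -0.22, -0.46, -0.26 and 0.05 with CA and 0.27, 0.15, -0.69, 0.15, -0.43 and 0.36 with UDCA, so the diets overlapped. Its CA estimate of -0.35 ± 0.14 (adjusted p = 0.0405) became -0.02 with median centring and lost its call without any one of CA arrays 1, 2, 4 and 5 or UDCA array 4. Col23a1 read 0.45, 0.31, 0.20, 0.44, 0.29 and 0.41 with CA and 0.47, -0.09, -0.12, 0.04, -0.11 and 0.51 with UDCA, where neither RNA was well above background on any array. It had a CA estimate of 0.35 ± 0.11 (adjusted p = 0.0105) and a bound of at least 1.24-fold. Col17a1, a collagen of epithelial anchoring, was not called in either diet (-0.17 ± 0.11 and -0.09 ± 0.11), and none of the 3 probes was called with UDCA or in the difference.

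Of 12 genes with several tested probes, the probes differed in a call or by at least 1 in an estimate in 9. All probes of a gene had the same call in 11 of the 12 genes with CA, in 6 with UDCA and in 8 in the difference.

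**Figure D5:**
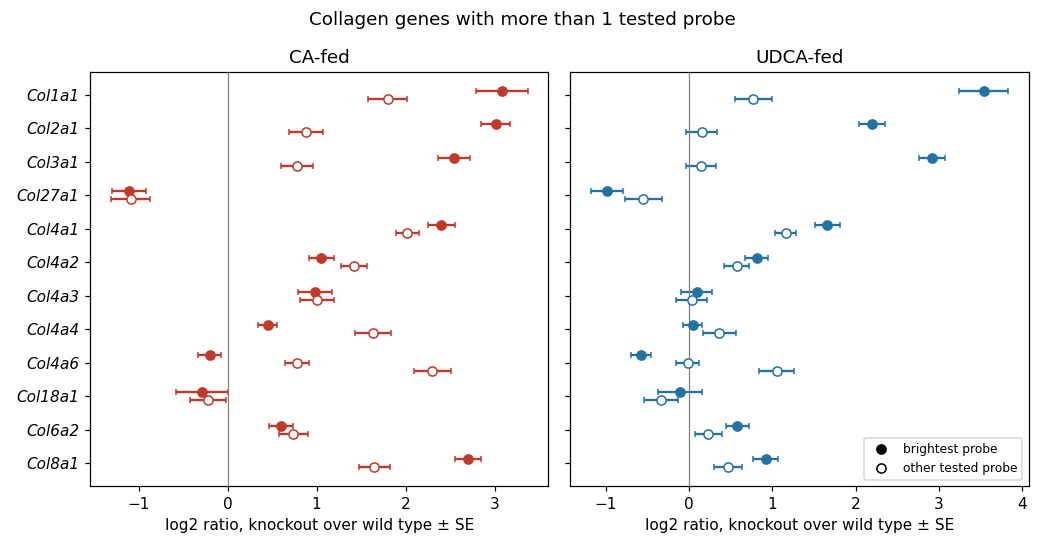
Fitted log2 ratios ± SE are shown for the 12 collagen genes with more than 1 tested probe, CA on the left and UDCA on the right, filled circles for the brightest probe and open circles for the others. Col4a6 is spread widest with CA and Col1a1 and Col3a1 with UDCA, while the probes of Col4a3 and Col18a1 lie together.

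Some arrays stood out over many members. CA array 2 had the highest knockout level of the 12 arrays on 22 of the 78 probes, and CA array 4 the highest wild-type level on 21. UDCA array 6, alone on its slide, had the highest ratio of its diet on 19 of 41 probes with all 6 values. The part of these arrays in the results was not tested beyond leaving them out. With CA arrays 2 and 4 left out, 32 probes were higher with CA and 18 in the difference, and with CA arrays 3 and 4 left out, 33 and 22.

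The genes that make collagen were counted beside the members. Of 37 genes for hydroxylation, folding, processing and cross-linking of collagen, 31 were tested. With CA 12 were higher and 6 lower (all tested probes 34.2% and 25.4%), with UDCA 8 and 2 (15.1% and 8.39%), and in the difference 9 and 4 (16.4% and 10.5%). Each gene was read by its brightest tested probe.

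Of the cross-linking enzymes 4 of 4 tested were higher with CA and 2 with UDCA, and 3 were higher with CA than with UDCA. Lox and Loxl3 passed the filter through CA-fed knockout RNA only, so for them a higher ratio with CA was partly set by it. These lysyl oxidases gave 2.23 ± 0.15 for Loxl2, 2.08 ± 0.16 for Loxl1, 1.37 ± 0.23 for Lox and 0.37 ± 0.14 for Loxl3 with CA. With UDCA, Loxl2 (1.56 ± 0.15) and Loxl1 (1.29 ± 0.16) were called. Another Loxl2 probe gave 0.77 ± 0.17 with CA and, not called, 0.26 ± 0.17 with UDCA. Among 4 tested processing genes, Adamts2, the protease that removes the N-terminal propeptide, rose by 2.27 ± 0.11 and 1.56 ± 0.11, and Pcolce, an enhancer of C-terminal processing, by 2.13 ± 0.11 and 1.38 ± 0.11. Adamts2 was saturated in 1 array channel and Pcolce in 3, which limits their estimates. Pcolce2 fell with CA (-1.08 ± 0.14), and the C-proteinase Bmp1 fell by its brightest probe (-0.31 ± 0.12 with CA and -0.55 ± 0.12 with UDCA). Its other probe was lower with CA (-0.36 ± 0.12) and not called with UDCA (-0.09 ± 0.12).

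Among 9 genes of folding and secretion, the collagen chaperones Fkbp10 (2.66 ± 0.13 and 1.33 ± 0.13) and Serpinh1 (2.44 ± 0.18 and 1.75 ± 0.18) rose in both diets. Serpinh1 was saturated in 3 array channels, which limits its estimates. In the same list Mia2 (-1.12 ± 0.13), Mia3 (-0.69 ± 0.18), Sec24d (-0.40 ± 0.15) and Sec23a (-0.35 ± 0.09), which serve export from the endoplasmic reticulum, fell with CA. Mia2 was also lower with UDCA by that probe (-0.59 ± 0.13), while its 2 other probes were lower with CA and not called with UDCA (-0.38 ± 0.15 and -0.10 ± 0.15). Of 14 tested hydroxylation and glycosylation genes 4 were higher with CA and 2 with UDCA, beside 34.2% and 15.1% of all tested probes. The median of this list was 0.26 with CA and 0.03 with UDCA. The genes called higher were P3h3 (2.01 ± 0.14 with CA, 0.96 ± 0.14 with UDCA), P3h4 (1.46 ± 0.15, with CA only called), Plod2 (1.16 ± 0.16, with CA only called) and Crtap (1.0 ± 0.11 and 0.66 ± 0.11). P3h4 and Plod2 passed the filter through CA-fed knockout RNA only, so their higher ratios with CA were partly set by it.

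Markers of cells that make collagen and of other liver cells were counted beside these genes, and their counts stand against the same shares of all tested probes (34.2% higher and 25.4% lower with CA, 15.1% and 8.39% with UDCA). Of 11 tested stellate cell markers 10 were higher with CA and 7 with UDCA, and their summed level stood between 1.2 and 2.45 above wild type on CA arrays and between 1.07 and 1.65 on UDCA arrays. Of 7 portal fibroblast markers 6 and 4 were higher, with summed levels from 1.70 to 2.66 and from 1.02 to 2.09. Of 11 cholangiocyte markers 11 and 9 were higher, from 0.65 to 3.65 and from 1.39 to 2.61. Des, Upk1b, Cftr and Tspan8 of these lists passed the filter through knockout RNA only, so their higher ratios were partly set by it. Endothelial markers stayed near 0 in sum (from -0.45 to 0.46 and from -0.09 to 0.32), with 4 of 11 higher and 2 lower with CA and 1 and 1 with UDCA. Of 10 macrophage markers 6 were higher and 4 lower with CA and 7 were higher with UDCA, in sum from 0.24 to 1.43 and from 0.46 to 1.02. Hepatocyte markers followed the dye, from -2.52 to 1.84 and from -2.87 to 2.17, and 2 of 10, Ttr and Hnf4a, were lower in each diet. All 10 were saturated in places, from 1 array channel for Hnf4a to 18 for Alb. Of 4 tested pancreas markers 4 were lower with CA and 0 with UDCA. Gfap of the stellate list, Gli1 of the portal fibroblast list, Tf and Serpina1a of the hepatocyte list and 7 pancreas genes were not tested. The part of these cell types in the collagen ratios was not tested.

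The sequence before the start of the genes was read from RefSeq (GRCm38.p6), which held 35 windows for 32 of the 40 genes, in the 250 bases before each start and on both strands. The Sp1-type box GGGCGG was found in 19 of the 35 windows (54.3%), against 32.7% of 32851 windows of all genes. The CCAAT box was found in 34.3% against 33.8%, TATAAA in 14.3% against 12.4%, CATTCC in 11.4% against 12.6% and TGANTCA in 2.86% against 6.75%. The last 120 bases before the start are shown for Col8a1, which had the largest difference between the diets, and for Col1a2, whose difference was not called, with matches to these motifs on either strand in capitals.

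Col8a1, chr16:57754738-57754857, minus strand: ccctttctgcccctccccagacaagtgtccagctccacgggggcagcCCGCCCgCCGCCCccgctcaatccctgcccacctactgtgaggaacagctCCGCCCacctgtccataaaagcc

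Col1a2, chr6:4505498-4505617, plus strand: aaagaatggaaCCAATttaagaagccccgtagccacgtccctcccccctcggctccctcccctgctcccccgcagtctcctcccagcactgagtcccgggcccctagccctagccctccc

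In these bases Col8a1 holds GGGCGG on the opposite strand 3 times, and Col1a2 holds a CCAAT box. In the whole 250 bases GGGCGG was found 4 times for Col8a1 and 2 times for Col1a2. A match describes the letters only.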

How the data were processed

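Liver RNA was hybridised on Agilent whole mouse genome arrays in 2 colours. Per the file headers, Feature Extraction 9.5.3 read the images and gave mean and local background intensity in green and red, not normalized, and also processed signals with their log10 ratio. The deposited series values are log2 ratios of unstated normalization. Their CA columns ran opposite to the scanner ratios of knockout over wild type and were turned. Intensities were corrected with normexp (offset 50) and loess in limma 3.58.1 (R 4.3.3), 1639 control spots were left out, flagged outliers were set to missing (0.937% of the values kept) and spots of a probe were averaged. Ratios were turned to knockout over wild type. All 12 arrays were fitted together in limma with a term per diet and for dye, on 21688 probes, and the fit was tested on simulated data. At-least folds used channels scaled by Aquantile.

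The collagen members, the other gene lists and the rule for named genes were chosen with earlier results of these data known. Values on every array are given for the brightest tested probe of 12 genes, for the called probe with the largest estimate per class and comparison, and for probes of a gene that disagree. Of the biosynthesis lists up to 4 called genes are named per list and comparison. The scanner name equalled the RefSeq symbol for all 57 collagen probes with a listed accession. Positions come from the scanner files (mm7). Exons and introns were not analysed here.

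Which arrays make up each dye swap is not labelled. The highest residual correlation of a possible pair was 0.123 with CA and 0.0729 with UDCA, so 6 arrays from 5 livers were counted as 6, and p-values may be too small. The fit was repeated with 1 possible pair per diet averaged, for all 81 choices. CA arrays 3 and 4, the pair with the highest correlation, share a slide and low pancreas markers. Alternatives covered background, scaling, filters, dye, slide and each array left out. Those leaving out saturated values, CA arrays 2 and 4, or CA arrays 3 and 4, and the averaged pairs were chosen after seeing the data.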

Additional observations from a re-analysis of the deposited data

Results flagged for a closer look

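In 92 sets of up to 6 arrays (each tested collagen probe and Abcb4 probe in each diet), 12 had 1 array whose gap to the next exceeded Dixon's critical value as a share of the whole range, 13% where chance gives about 1 in 20. The sets share arrays and are not independent. UDCA array 6 accounted for 6 of them. It read -1.80 on Col27a1 A_52_P129388 (others -0.57 to -0.08), -2.01 on Col27a1 A_52_P480088 (-1.03 to -0.60), -0.61 on Col4a3 A_52_P469744 (0.02 to 0.33), 1.23 on Col4a4 A_52_P424594 (-0.12 to 0.29), 1.82 on Col4a5 A_51_P216005 (0.12 to 0.74) and 0.89 on Col15a1 A_51_P159792 (0.17 to 0.40). CA array 2 read 2.54 on Col4a3 A_51_P296535 (others 0.27 to 1.05), 2.67 on Col4a3 A_52_P469744 (0.33 to 0.90) and 1.85 on Col6a2 A_51_P279639 (0.25 to 0.71). CA array 4 read 0.75 on Col1a2 A_51_P182303 (others 2.45 to 2.96), where the knockout spot was saturated. UDCA array 5 read 2.78 on Col1a1 A_52_P525107 (others 3.56 to 4.01), also saturated, and 0.70 on Col5a1 A_51_P414637 (1.29 to 1.53).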

How the results depend on the processing

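Of 37 collagen probes called with CA, 33 kept their call and direction in every alternative checked probe by probe in which they were tested. So did 16 of 22 with UDCA and 3 of 21 between the diets. Of the 81 dye-swap choices, that check covered only the averaging of CA arrays 3 and 4 and of UDCA arrays 3 and 5. Requiring both RNAs of both diets above background left 16 probes, with 11 higher and 2 lower with CA, 10 higher with UDCA and 4 between the diets, and 6 biosynthesis genes higher with CA and 4 in the difference. Median centring moved the median of all probes to 0.23 with CA, 0.29 with UDCA and -0.07 between the diets. It gave 2 collagen probes lower with CA, 0 with UDCA and 7 higher in the difference, and 2 biosynthesis genes lower with CA, 0 with UDCA, and 1 higher and 0 lower in the difference. The processed signals gave 11 collagen probes higher and 1 biosynthesis gene lower in the difference, slide as a fixed block 10 and 0, with 2 collagen probes lower with CA. Without a dye term 2 biosynthesis genes were lower in the difference, with flagged values kept 1 collagen probe was lower with UDCA, with CA arrays 2 and 4 left out 2 were lower with CA, and the brightest probe per gene gave 12 higher in the difference. The causes were not tested. Among differences called in either fit, the sign turned for Col1a1 A_51_P377094 with processed signals (-0.15) and for Col1a2 A_51_P182303 with the deposited values (0.55). Uncalled differences also changed sign, among them Col1a1 A_52_P525107 (0.88) and Col1a2 (0.87) with slide as a fixed block. With a possible dye-swap pair averaged in each diet (81 choices), 33 to 33 collagen probes were higher with CA, 18 to 22 with UDCA and 13 to 23 between the diets, where 1 to 4 biosynthesis genes were lower. Averaging the most correlated pairs ended the UDCA call of Col4a5 (0.71, adjusted p = 0.0639) and the difference call of Col2a1 A_52_P216436 (0.80, adjusted p = 0.0521).

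Leaving out each array in turn gave 33 to 33 collagen probes higher and 2 to 4 lower with CA, 18 to 21 and 2 to 2 with UDCA, and 17 to 23 and 0 to 1 for CA against UDCA. For biosynthesis genes it gave 11 to 15 higher and 4 to 7 lower with CA, 8 to 8 and 2 to 3 with UDCA, and 7 to 10 and 2 to 4 in the difference. The array numbers do not pair the diets: with dye removed, same-numbered arrays correlated between -0.579 and 0.123. With the replicate block in place of dye, the collagen counts were 33, 19 and 20 higher, and 2 biosynthesis genes were lower in the difference. Signals under background or saturated limit 34 untested probes and the brightest collagens.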
